A study of Mus musculus with 19 samples.

Results

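Imprinted genes are transcribed mainly from one parental allele, and 10 of them were followed across all RNA libraries and peak lists of the series: Meg3, Rian, Mirg, Dlk1, H19, Igf2, Peg3, Grb10, Nnat and Mest. They were picked by name, with the RNA values of these same libraries known, out of 24016 transcripts in the deposited table. Their RNA changes are therefore given as a description, with no test. All 10 were found in the table and all 10 reached an FPKM (fragments per kilobase of transcript, scaled to the depth of the library) of at least 1 in at least 1 library.

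The series has 19 samples of mouse cells and compares neural progenitors (NeuP) and embryonic stem cells (ESC) lacking part of their Nup153, a nucleoporin of the nuclear pore basket, with control ESC. RNA came from 2 NeuP libraries without any hairpin, from 2 ESC libraries that carried a lentiviral short hairpin against Nup153 (shNup153 #2 and shNup153 #4, the knockdown), and from 1 ESC library with a scrambled hairpin (shCtrl). All ESC of these libraries were of the E14 line, were kept on irradiated mouse embryonic fibroblasts with LIF, and spent at least 4 days in puromycin after transduction. NeuP were made from ESC by way of embryoid bodies and Noggin and were grown with FGF2 and EGF, and the labels name no line for them. The 9 peak lists cover Ring1B in NeuP, in shNup153 #2, in shNup153 #4 and in shCtrl ESC, Cbx7 in shCtrl ESC, Oct4 in shNup153 #2 and in shCtrl ESC, and DamID of Oct4 and of Nup153 in E14 ESC without a hairpin, where a fused DNA methylase marks sites the protein has been close to.

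Imprinting is set in the germ line, where DNA methylation is placed on control regions of the egg or the sperm chromosome, and it is kept through early development by proteins that protect those marks. Dlk1, Igf2, Peg3, Nnat and Mest are read from the paternal allele, and Meg3, Rian, Mirg and H19 from the maternal one. Grb10 is maternal in most tissues and paternal in neurons. Many of these genes act on growth of the embryo and placenta. The libraries hold no allele information, so each value below is the sum over both alleles.

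RNA depth recovered from the table was 32.2 and 24.3 M fragments in NeuP, 31.2 and 25.5 M in shNup153 #2 and #4, and 25.4 M in shCtrl. Of 8 neural progenitor markers, 6 rose in NeuP (limma, adjusted p under 0.05). Sox1, at 2.16 and 1.82 FPKM in NeuP and 0.948 FPKM in shCtrl, and Msi1, at 21.6 and 10.7 FPKM in NeuP and 17.5 FPKM in shCtrl, did not pass. The summed FPKM of 8 neural progenitor markers was 3954 and 4382 in NeuP and between 128 and 146 in the ESC libraries, of which Fabp7 alone made 2454 and 3144 in NeuP. All 8 ESC markers fell in NeuP, with a summed FPKM of 8.28 and 7.54 in NeuP and between 1756 and 1996 in ESC. Nup153 was at 20.9 and 17.4 FPKM in shNup153 #2 and #4, against 39.4 FPKM in shCtrl (log2 change -1.01 ± 0.55, SE, adjusted p = 0.897, limma). Both comparisons share the 1 shCtrl library, which has no replicate. The SE of a gene is the same in both, since its spread is pooled over the NeuP and hairpin libraries. A wide SE in the knockdown can thus come from the NeuP replicates.

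The 10 genes lie in 6 imprinted loci. The maternal noncoding RNAs Meg3, Rian, Mirg and H19 were at 3.07 FPKM or less in NeuP and at 19.6 to 201 FPKM in ESC. Nnat, Mest and Peg3, all paternally expressed, were higher in NeuP. In the knockdown all 10 stood above shCtrl in both hairpin libraries, 7 of them by less than 2-fold in FPKM, and Peg3, Igf2 and Grb10 stood highest above it.

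Start regions are shown for 4 of the members at which peaks were found or whose RNA moved with its neighbours, and others that fit this rule are not shown. Each is the coding strand from 250 bases before to 50 bases after the annotated start, from RefSeq on GRCm38.p6, with every CpG dinucleotide, the site of DNA methylation, in capitals. The deposited files use mm9, so these positions are not on the scale of the peaks. Judged by its distance from the Meg3 start, the Dlk1 start shown lies upstream of the one at which peaks were counted. Dlk1 spans chr12:109452573-109452872 on the plus strand with 9 CpG. Meg3 spans chr12:109540746-109541045 on the plus strand with 13 CpG. Peg3 spans chr7:6730370-6730669 on the minus strand with 13 CpG. Nnat spans chr2:157559828-157560127 on the plus strand with 17 CpG.
Dlk1 promoter: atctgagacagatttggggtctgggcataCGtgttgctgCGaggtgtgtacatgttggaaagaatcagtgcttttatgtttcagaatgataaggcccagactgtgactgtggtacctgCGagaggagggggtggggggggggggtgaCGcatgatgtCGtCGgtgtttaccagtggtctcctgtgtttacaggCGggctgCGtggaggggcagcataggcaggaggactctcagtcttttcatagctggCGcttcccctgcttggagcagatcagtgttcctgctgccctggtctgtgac
Meg3 promoter: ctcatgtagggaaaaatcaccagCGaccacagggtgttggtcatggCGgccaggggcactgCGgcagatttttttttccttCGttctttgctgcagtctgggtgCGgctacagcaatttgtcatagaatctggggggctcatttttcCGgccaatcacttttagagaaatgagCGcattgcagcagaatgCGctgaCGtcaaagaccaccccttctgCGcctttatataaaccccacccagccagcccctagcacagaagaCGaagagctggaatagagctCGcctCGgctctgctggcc
Peg3 promoter: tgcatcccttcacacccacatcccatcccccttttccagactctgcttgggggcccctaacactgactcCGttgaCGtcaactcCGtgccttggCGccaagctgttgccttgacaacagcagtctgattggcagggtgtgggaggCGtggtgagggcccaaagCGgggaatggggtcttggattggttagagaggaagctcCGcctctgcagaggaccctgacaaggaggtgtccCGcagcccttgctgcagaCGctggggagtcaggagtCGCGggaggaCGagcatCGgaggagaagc
Nnat promoter: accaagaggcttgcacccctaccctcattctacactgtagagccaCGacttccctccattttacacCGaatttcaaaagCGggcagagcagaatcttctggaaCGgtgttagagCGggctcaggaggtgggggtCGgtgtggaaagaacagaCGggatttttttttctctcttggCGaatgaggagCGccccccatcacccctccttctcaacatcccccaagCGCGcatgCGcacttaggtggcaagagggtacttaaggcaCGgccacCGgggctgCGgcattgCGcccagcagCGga

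Across 32851 RefSeq promoters of this length the median was 7 CpG, and the 4 windows shown lie above it. Not all member windows do: Meg3 has a further window with 1 CpG, and Igf2 has windows with 2 and 7 CpG. Of the members, 9 had an entry, with 16 promoters between them, and H19 had none. CpG counts ran from 0 in the Rian window to 45 in 1 of the 2 Grb10 windows, a count that 1.93% of all promoters reach. TGCCGC is the core of the sequence bound by the imprint-protecting zinc finger protein ZFP57. It was present on either strand in 6 of the 16 windows and in 11.6% of all promoters. The 6 came from 5 genes (Meg3, Igf2, Grb10, Nnat and Mest). The Mest windows with it, from chr6:30737800 and chr6:30737803, overlap almost fully, so the same stretch is counted more than once. AANATGGC, the motif of YY1, was in 0 of the 16 and in 6.05% of all promoters. Neither motif contains the other, and a match is a description and not a bound site.

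Meg3 (NR_027652, chromosome 12, 110779206 to 110809939, plus strand, mm9), a long noncoding RNA of the Dlk1-Dio3 domain with growth-suppressing activity, was measured at 0.065 and 2.04 FPKM in NeuP, 201 and 180 FPKM in shNup153 #2 and #4, and 171 FPKM in shCtrl. The NeuP libraries lie far below all ESC libraries, and the ESC libraries lie within a narrow band. In reads, 4 and 94 were found in NeuP and 8247 in shCtrl; the first of these has a 95% Poisson interval of 1.09 to 10.2 reads, which covers counting error only. The log2 change in NeuP was -6.58 ± 0.70 (SE, on log2 of FPKM plus 1, a scale that understates the change of weakly expressed genes), and in the knockdown 0.16 ± 0.70.

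Rian (NR_028261, 110842155 to 110899921), the downstream noncoding RNA that hosts small nucleolar RNAs, followed the same pattern with 0.061 and 1.85 FPKM in NeuP, 137 and 152 FPKM in shNup153 #2 and #4, and 118 FPKM in shCtrl. Its log2 change was -6.09 ± 0.67 in NeuP and 0.29 ± 0.67 in the knockdown. Mirg (NR_028265, 110973191 to 110987667), which hosts a cluster of microRNAs, was at 0.024 and 0.447 FPKM in NeuP, 27.4 and 33.7 FPKM in shNup153 #2 and #4, and 19.6 FPKM in shCtrl. For both, as for Meg3, NeuP and ESC did not overlap. Mirg had log2 changes of -4.08 ± 0.31 in NeuP and 0.61 ± 0.31 in the knockdown, where it was above shCtrl by 0.46 and 0.75 in the separate hairpins.

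Dlk1 (NM_001190704, 110691665 to 110701546, plus strand), a membrane protein of the Notch ligand family that holds back differentiation of precursors and is the paternally expressed gene at the other end of the cluster, was weak in every library. It was measured at 0.076 and 0.751 FPKM in NeuP, 1.76 and 1.87 FPKM in shNup153 #2 and #4, and 1.42 FPKM in shCtrl. NeuP was lower in both replicates, but the distance depended on the replicate, since the log2 difference was -1.17 in replicate 1 and -0.47 in replicate 2. Within the ESC libraries Meg3 and Rian were thus present at over 100 FPKM in the same RNA in which Dlk1 stayed under 2 FPKM.

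Other genes of the domain were low as well. Rtl1, a retrotransposon-derived gene needed in placental vessels, did not reach 0.1 FPKM in any library. Dio3, which codes for the deiodinase that inactivates thyroid hormone, was listed at 0 in both NeuP libraries, at 0.654 and 0.589 FPKM in shNup153 #2 and #4, and at 1.67 FPKM in shCtrl. It fell in NeuP by 1.42 ± 0.13 (log2, adjusted p = 0.00577, limma, Benjamini-Hochberg), and in the knockdown its log2 difference of -0.72 did not pass (adjusted p = 0.825). Only shCtrl reached 1 FPKM for Dio3. The gene thus entered the test through the very library it is compared with, and its p-values are not read as support. Begain, at the Dlk1 end, fell in NeuP by 0.89 ± 0.17 (adjusted p = 0.0254).

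**Figure D1:**
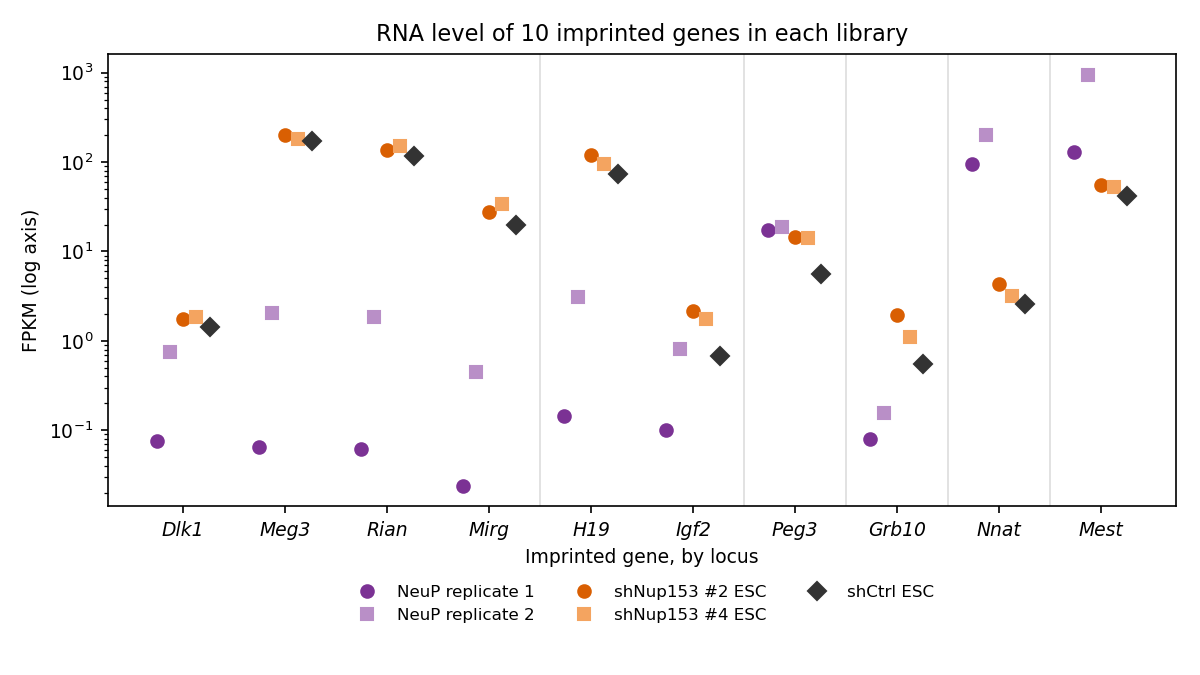
RNA level of each member in FPKM on a log axis, one point per library, ordered by locus, with NeuP left of the knockdown and the shCtrl library. Meg3, Rian, Mirg and H19 separate NeuP from ESC by more than 10-fold, while Nnat and Mest lie above ESC in both NeuP libraries; the 2 NeuP points lie far apart for every member except Peg3, Grb10 and Nnat.

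Small RNA rows inside the loci give a second view of the host transcripts, and they were chosen after their values were seen. The libraries were made from polyadenylated RNA, so reads over a microRNA precursor stand for the host transcript or an uncut precursor and not for the mature microRNA. The table holds 64 precursor rows of these loci, 61 of them in the Dlk1-Dio3 domain, 1 in H19, 1 in Igf2 and 1 in Mest. All 64 matched RefSeq, with 117 mature names and 108 different seeds, and 9 seeds were shared by 2 names. The mature forms below, 1 or 2 for each, belong to the 9 precursors with at least 10 reads in all; the seed, bases 2 to 8, by which a microRNA pairs with its targets, is in capitals.
mmu-miR-675-5p: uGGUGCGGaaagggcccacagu
mmu-miR-675-3p: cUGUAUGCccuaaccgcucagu
mmu-miR-410-5p: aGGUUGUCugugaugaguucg
mmu-miR-410-3p: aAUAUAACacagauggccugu
mmu-miR-3072-5p: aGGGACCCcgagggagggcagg
mmu-miR-434-3p: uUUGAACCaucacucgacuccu
mmu-miR-1188-5p: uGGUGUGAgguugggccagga
mmu-miR-377-3p: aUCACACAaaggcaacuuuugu
mmu-miR-134-5p: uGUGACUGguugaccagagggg
mmu-miR-453: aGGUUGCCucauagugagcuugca
mmu-miR-382-5p: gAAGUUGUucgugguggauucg

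No seed occurs more than once among those shown. Elsewhere in the cluster, miR-494-5p has the seed of miR-410-5p and miR-496a-5p that of miR-453. Over the 61 precursors of the Dlk1-Dio3 domain, 0 and 2 reads were found in NeuP, 77 and 104 in shNup153 #2 and #4, and 72 in shCtrl. A read was seen in ESC for 30 of the 61 and in NeuP for 2. The 10 precursors inside Mirg held 44, 66 and 46 of the ESC reads in the same order of libraries, led by Mir410 with 20, 33 and 26.

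Mir675 (NR_030416, chromosome 7, 149762969 to 149763052), which lies in the first exon of H19 and is cut from it, had 0 reads in both NeuP libraries, 130 and 93 in shNup153 #2 and #4, and 56 in shCtrl. Mir483 in Igf2 had no read and Mir335 in Mest had 1. In Rian, 7 small RNA rows held 1 and 0 reads in NeuP, 124 and 127 in the knockdown and 132 in shCtrl. The small RNA rows of Rian, Mirg and H19 thus separated NeuP from ESC as their hosts did, and those reads lie inside the same transcripts and are no separate measurement.

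**Figure D2:**
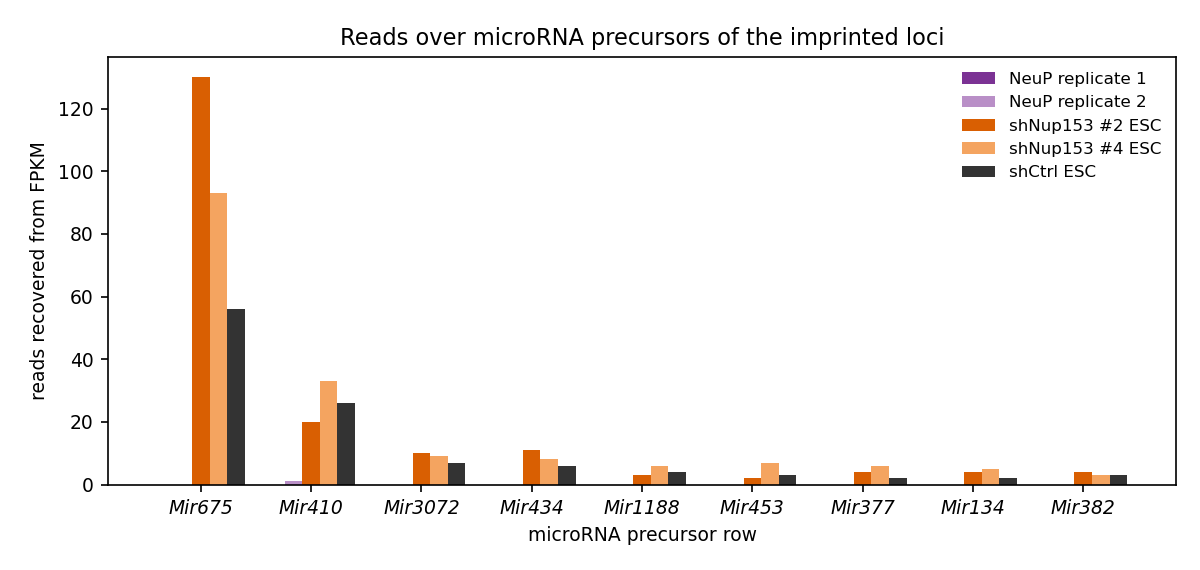
Reads recovered from FPKM over the 9 microRNA precursor rows with at least 10 reads in all, for NeuP, knockdown and shCtrl libraries from left to right within each group of bars. Mir675 reached 130 reads in shNup153 #2 against 56 in shCtrl, and 1 read in 1 NeuP library was the only one seen in NeuP for these rows.

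H19 (NR_001592, chromosome 7, 149761437 to 149764051, minus strand, mm9), a maternally expressed noncoding RNA of the embryo, was at 0.143 and 3.07 FPKM in NeuP, 121 and 94.5 FPKM in shNup153 #2 and #4, and 74.1 FPKM in shCtrl. The groups of NeuP and ESC did not overlap, and both knockdown libraries were above shCtrl. The log2 change was -5.12 ± 0.86 in NeuP and 0.52 ± 0.86 in the knockdown. Igf2 (NM_001122737, 149836673 to 149843386, minus strand), the fetal growth factor that shares its enhancers with H19, was far weaker in ESC, at 0.101 and 0.816 FPKM in NeuP, 2.18 and 1.77 FPKM in shNup153 #2 and #4, and 0.674 FPKM in shCtrl. NeuP replicate 1 was below and replicate 2 above shCtrl, so the log2 change of -0.24 ± 0.36 has no direction that both libraries share, and it was 0.16 after quantile normalization and 0.12 without NeuP replicate 1.

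In the knockdown Igf2 was 3.23-fold and 2.62-fold over shCtrl by FPKM in hairpins #2 and #4, from 250 and 166 reads against 63 reads in shCtrl (95% Poisson interval 48.4 to 80.6, counting error only). The log2 change was 0.82 ± 0.36. Grb10 (NM_001177629, chromosome 11, 11830502 to 11927974, minus strand), an adaptor that dampens insulin and IGF receptor signalling, was at 0.079 and 0.156 FPKM in NeuP, 1.97 and 1.10 FPKM in shNup153 #2 and #4, and 0.548 FPKM in shCtrl. The 2 hairpins differed, with log2 differences of 0.94 and 0.44 from shCtrl, and the change was 0.69 ± 0.26 in the knockdown and -0.47 ± 0.26 in NeuP. The NeuP value was -0.00 after quantile normalization, under which the median of all genes tested was -0.06 in place of -0.26.

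Neighbours of Grb10 moved further in NeuP. Cobl, an actin nucleator, was at 0.029 and 0.046 FPKM in NeuP, 16.7 and 19.6 FPKM in shNup153 #2 and #4, and 10.2 FPKM in shCtrl, and it fell in NeuP by 3.43 ± 0.19 (log2, adjusted p = 0.00265, limma). Ddc, the decarboxylase of dopamine and serotonin synthesis, fell by 0.90 ± 0.15 (adjusted p = 0.0171). In the knockdown the log2 differences were 0.78 for Cobl and 0.60 for Ddc, and neither passed (adjusted p = 0.825 each).

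Peg3 (NM_008817, chromosome 7, 6658671 to 6683130, minus strand), a paternally expressed zinc finger gene linked to maternal behaviour and growth, was the member with the closest replicates. It was measured at 17.4 and 18.9 FPKM in NeuP, 14.4 and 14.2 FPKM in shNup153 #2 and #4, and 5.56 FPKM in shCtrl. These are 3.13 and 3.40 times shCtrl in NeuP and 2.60 and 2.55 times in the knockdown, so the 4 libraries lay together above it. The log2 change was 1.54 ± 0.18 in NeuP and 1.22 ± 0.18 in the knockdown, and both values rest on the 1 shCtrl library. Zim1 and Usp29, which share the domain, stayed under 1 FPKM in all libraries, with Usp29 at 0.087 and 0.419 in NeuP, 0.671 and 0.841 in the knockdown and 0.333 in shCtrl. Zim3 was listed at 0 in NeuP and between 0.282 and 0.427 FPKM in ESC, and Zim2 and Zfp264 were not analysed here.

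Nnat (NM_180960, chromosome 2, 157385814 to 157388261, plus strand), a small membrane proteolipid of the developing brain, was at 95.7 and 199 FPKM in NeuP, 4.36 and 3.17 FPKM in shNup153 #2 and #4, and 2.58 FPKM in shCtrl. Its NeuP libraries were 37.1 and 77.1 times shCtrl, with a log2 change of 5.28 ± 0.53, and 0.40 ± 0.53 in the knockdown. Nnat lies within Blcap on the opposite strand, and the sources used here do not say whether counting used strand. Blcap was at 27.2 and 17.1 FPKM in NeuP, 11.8 and 12.6 FPKM in the knockdown and 11.7 FPKM in shCtrl, and it did not pass the test in NeuP (log2 change 0.83 ± 0.34, adjusted p = 0.126).

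Mest (NM_001252293, chromosome 6, 30683506 to 30698466, plus strand), a mesodermal hydrolase-like protein, was the most abundant member in NeuP, at 130 and 953 FPKM, against 55.9 and 52.1 FPKM in shNup153 #2 and #4 and 42.0 FPKM in shCtrl. Both NeuP libraries were higher, at 3.09 and 22.7 times shCtrl, so the size depended on the replicate. The log2 change was 3.04 ± 1.30 in NeuP, with 1.61 in replicate 1 and 4.47 in replicate 2, and 0.35 ± 1.30 in the knockdown. Copg2, whose 3' end overlaps that of Mest by 913 bp on the opposite strand, fell in NeuP by 1.18 ± 0.20 (adjusted p = 0.0185, limma). Klf14 was listed at 0 in NeuP and stayed under 0.2 FPKM in ESC.

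Of the 10 members, 3 were above shCtrl in both NeuP libraries and 6 below it, beside 36.8% and 49.4% of all genes tested. By at least 2-fold in both, 3 were higher (Peg3, Nnat, Mest) and 4 lower (Meg3, Rian, Mirg, H19), beside 15.8% and 22.4%. On plain FPKM Grb10 was also over 2-fold lower in both, at 0.144 and 0.285 times shCtrl, and with a pseudocount of 0.1 in place of 1 the lower count was 5. The median log2 change of the members was -0.64 in NeuP, against -0.26 over all 13750 genes tested. In the knockdown 10 of 10 were above shCtrl in both hairpins, beside 55.0% of all genes, and 0 were below it, beside 29.5%, with a median of 0.46 against 0.08. By the same size rule 1 member, Peg3, was at least 2-fold higher, beside 0.305% of all genes; on plain FPKM, Igf2 and Grb10 were 2-fold higher in both hairpins too. These counts describe genes chosen with their values known, so nothing is read from them about the group.

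The NeuP replicates differed widely for most members. Replicate 2 held 31.3, 30.4, 18.6 and 21.5 times the FPKM of replicate 1 for Meg3, Rian, Mirg and H19, and 9.88, 8.08 and 7.33 times for Dlk1, Igf2 and Mest. For Nnat, Grb10 and Peg3 the ratios were 2.08, 1.97 and 1.09, and Peg3 and Grb10 differed more among the ESC libraries than between the NeuP replicates. Of 14 fibroblast markers, 12 were higher in replicate 2. In the other marker lists this held for 3 of 8 ESC, 4 of 8 neural progenitor, 4 of 9 endoderm and 5 of 8 neuron markers. The share of all genes higher in replicate 2 was not counted. The summed levels of the fibroblast markers were 92.3 and 164 FPKM in NeuP, 21.5 and 20.2 FPKM in the knockdown and 14.2 FPKM in shCtrl. The markers did not move together against shCtrl. In both NeuP libraries 11 were above it and 3 (Col1a1, Col1a2 and Pdgfrb) below, beside 36.8% and 49.4% of all genes tested. Lum was at 0 in shCtrl, and 2 markers were at 0 in each knockdown library. The ESC had been grown on fibroblasts. In the knockdown, 7 of 14 fibroblast markers and 7 of 9 endoderm markers were above shCtrl in both hairpins, beside 55.0% of all genes tested. The endoderm sum was 13.5 and 13.1 FPKM in NeuP, 41.9 and 60.0 FPKM in the knockdown and 28.5 FPKM in shCtrl. The part of these cell types in the member values was not tested, and in bulk RNA fewer cells of a type and less RNA per cell cannot be told apart.

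**Figure D3:**
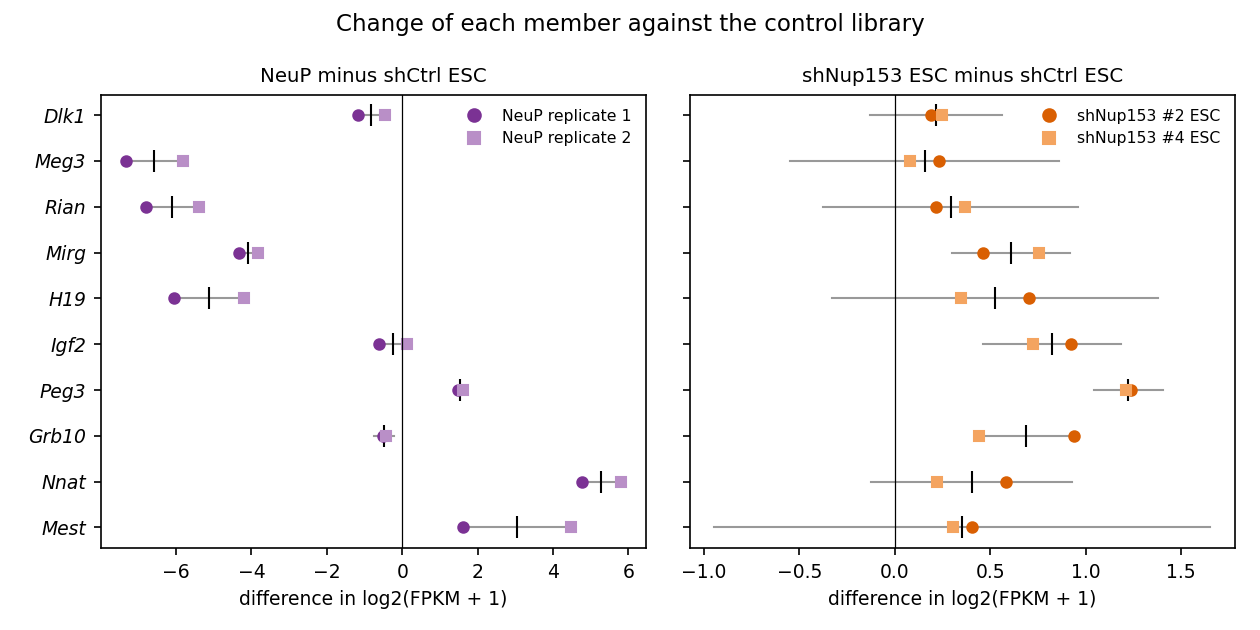
Difference of each member from the shCtrl library in log2(FPKM + 1), for NeuP on the left and the knockdown on the right, with a point per library, a tick at the fitted change and a line for its SE. NeuP points of Meg3, Rian, Mirg and H19 lie left of 0 by more than 3 units and all knockdown points lie right of 0; the horizontal scales differ.

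Other imprinted genes, which are not members, were tested in the fit across all genes, and 62 of 64 were in the table and 45 passed the level filter. In NeuP 10 rose and 12 fell (adjusted p under 0.05, limma, Benjamini-Hochberg), beside 18.3% and 24.9% of all genes, and the median log2 change was -0.40 against -0.26. The largest rises were in Peg12 (3.82 ± 0.79), Ndn (3.08 ± 0.37), a neuronal growth regulator of the Prader-Willi domain, Pon2 (3.02 ± 0.54), Nap1l5 (2.70 ± 0.36), Peg13 (2.40 ± 0.20), a noncoding RNA of brain, and Ppp1r9a (2.00 ± 0.18). Ndn was at 19.2 and 31.2 FPKM in NeuP and 2.01 FPKM in shCtrl.

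Among those that fell, the largest changes were in Slc38a4 (-6.69 ± 0.23), an amino acid transporter of placenta and liver, Phlda2 (-4.19 ± 0.16), a brake on placental growth that was listed at 0 in both NeuP libraries and at 17.3 FPKM in shCtrl, Cobl, and the IGF2 scavenger receptor gene Igf2r (-2.90 ± 0.46). Cdkn1c (-1.77 ± 0.15), a cell cycle inhibitor, and Slc22a18 (-1.53 ± 0.25) followed. Slc38a4 was at 0.048 and 0.326 FPKM in NeuP, 80.9 and 78.1 FPKM in the knockdown and 120 FPKM in shCtrl. Of the 11 listed genes of the Kcnq1 domain, next to Igf2, 8 were tested, 4 fell and 0 rose, beside 24.9% and 18.3% of all genes, and Ins2 was listed at 0 throughout. The counts rested on single libraries: without either hairpin library 0 rose and 6 fell, without NeuP replicate 1 the counts were 16 and 20, without NeuP replicate 2 they were 18 and 23, and with no level filter 6 rose.

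**Figure D4:**
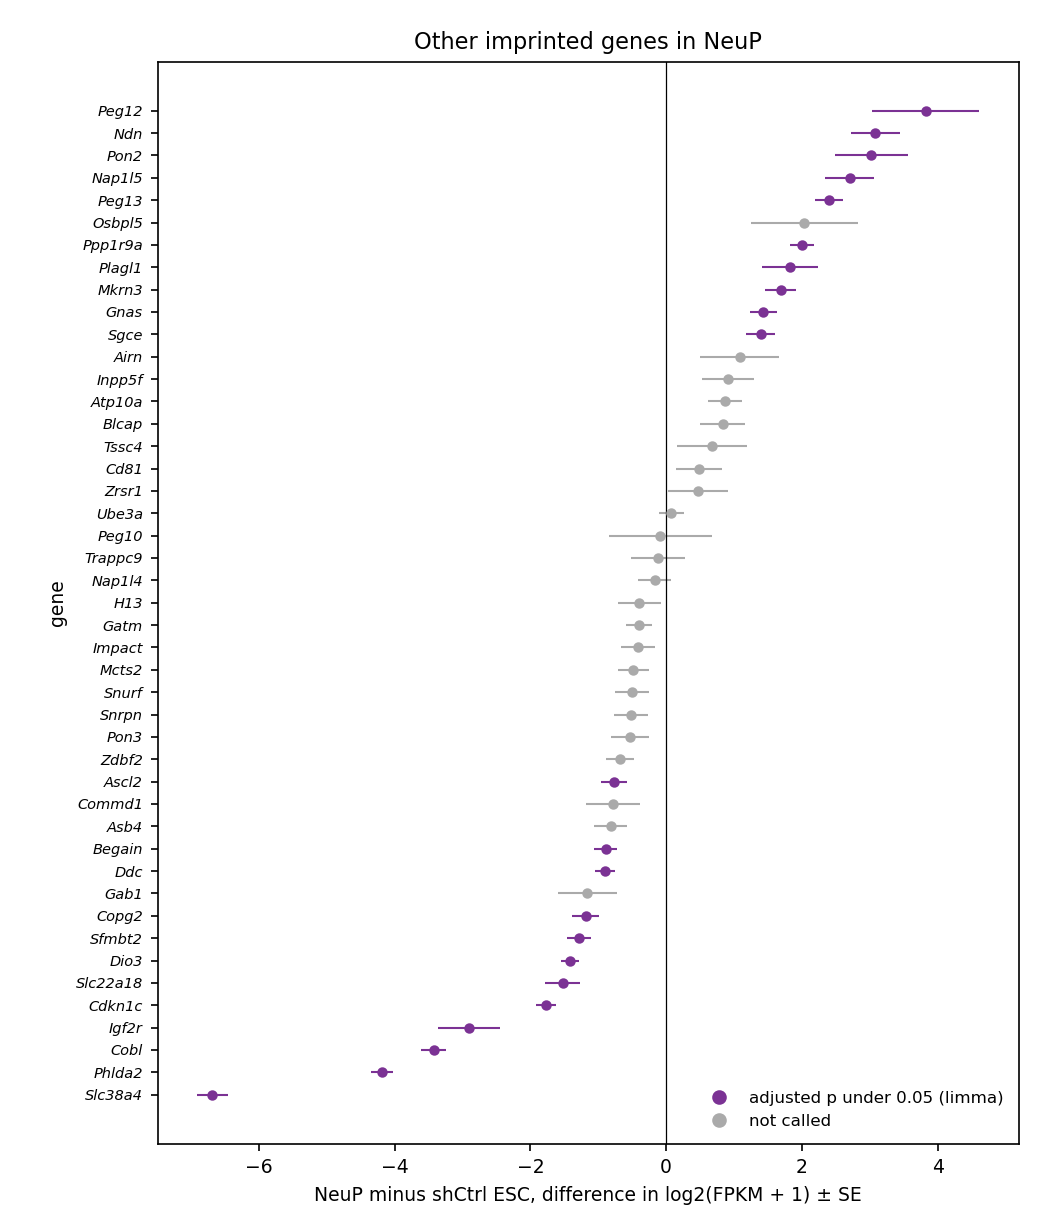
Change of the 45 tested imprinted genes outside the member list in NeuP against shCtrl, with the SE of the fit; filled purple points passed an adjusted p under 0.05 in limma. The values run from 3.82 for Peg12 to -6.69 for Slc38a4, and 22 genes were called.

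In the knockdown 0 of these 45 genes were called by limma, beside 0.0% of all genes, with 4 at an unadjusted p under 0.05 and a median of 0.00. Voom on recovered reads, the other tool run, also called 0 of all 13750 genes, with 481 at an unadjusted p under 0.05 and 814 in limma. The largest differences of the same sign in both hairpins were Peg12 (0.92), Zdbf2 (0.84), Cobl (0.78), Ndn (0.76) and Ddc (0.60) above shCtrl, and Dio3 (-0.72), Slc38a4 (-0.59), Sgce (-0.35), Gatm (-0.30) and Commd1 (-0.27) below it. Dio3 passed the level filter in shCtrl alone. Of the 45, 20 were above and 17 below shCtrl in both hairpins, beside 55.0% and 29.5% of all genes tested. The p-values of the knockdown include the spread between the NeuP replicates. With the 3 ESC libraries alone, more of all genes had an unadjusted p under 0.05 in limma.

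Genes of the IGF pathway set the frame for Igf2, Igf2r and Grb10. Of 17, 16 were tested, 7 rose and 2 fell in NeuP, beside 18.3% and 24.9% of all genes, with a median of 0.95 against -0.26. The binding protein genes Igfbp3 (4.78 ± 0.92), Igfbp5 (4.13 ± 0.39) and Igfbp7 (2.01 ± 0.25) and the receptor substrate gene Irs1 (2.33 ± 0.19) rose most, and Igf2bp1, an RNA-binding protein that carries Igf2 mRNA, fell by 4.89 ± 0.17, beside Igf2r. In the knockdown 0 of 16 were called by limma, with 0 at an unadjusted p under 0.05, and Igfbp4 (0.90), Igfbp7 (0.53), Igf1 (0.50) and Igfbp3 (0.43) were highest above shCtrl. Igfbp6 (-0.43), which reached 1 FPKM in shCtrl alone, and Igfbp2 (-0.20) were furthest below it.

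Genes for proteins that set, protect or erase imprints were followed as a list of 16, of which 3 rose and 7 fell in NeuP, beside 18.3% and 24.9% of all genes, with a median of -1.70 against -0.26. Tet3 (2.83 ± 0.28), an oxidase of methylated cytosine, Zfp445 (2.31 ± 0.23), a zinc finger protein that guards imprints, and Tet2 (1.20 ± 0.26) rose. Dnmt3l (-6.73 ± 0.18), the cofactor of de novo methylation, Dppa3 (-5.65 ± 0.17), which protects maternal marks in the zygote, Zfp57 (-2.96 ± 0.26) and Tet1 (-2.09 ± 0.31) had the largest falls among the called genes. Uhrf1 (-2.97 ± 1.45, adjusted p = 0.175, limma) did not pass. It was at 2.26 and 29.0 FPKM in the NeuP replicates against 76.6 FPKM in shCtrl. Zfp57 was at 12.0 and 16.1 FPKM in NeuP, 147 ± 8.17 FPKM in the knockdown (SD, n = 2) and 115 FPKM in shCtrl. Dnmt1, which copies methylation at replication, did not pass (adjusted p = 0.138), with 8.90 and 35.2 FPKM in the NeuP replicates against 75.5 FPKM in shCtrl. In the knockdown 0 of 16 were called by limma, with 3 at an unadjusted p under 0.05, and Zfp445 stood highest (0.92, at 16.0 and 18.2 FPKM against 8.51 FPKM in shCtrl). Dppa3 stood lowest (-0.56, at 32.7 and 34.6 FPKM against 50.0 FPKM in shCtrl).

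By profile over the 5 libraries, the 3 genes nearest to Meg3 (Euclidean distance of centred log2 values) were Mdk (0.29), Rian (0.50) and Tagln2 (0.58), and the nearest to Mest were Fbn2 (0.30), Spry4 (0.34) and Ccnd2 (0.40). Those nearest to Igf2 were 9230114K14Rik (0.16), the nucleoporin gene Pom121 (0.18) and Kdm8 (0.23), and those nearest to Peg3 were Zc3h4 (0.29), Ppm1d (0.31) and Keap1 (0.37). Among the other members, Rian was the second nearest of all genes to Meg3 and H19 ranked 34, while Dlk1 ranked 4009. The distances describe 5 libraries and share the same control.

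Peaks of PRC1, the Polycomb complex that keeps genes silent and of which Ring1B and Cbx7 are subunits, overlapped the 2 kb on either side of the start of most members in 2 of the 4 ESC lists of these proteins. Cbx7 in shCtrl had a peak at 7 of 10 members (13.2% of all transcripts) and Ring1B at 7 in shNup153 #2 (24.0%), 3 in shNup153 #4 (9.24%) and 2 in shCtrl (8.1%). Ring1B in NeuP had a peak at 2 (10.4%). The counts of the shallower lists depended on the window: within 1 kb and within 10 kb they were 1 and 5 in shCtrl and 1 and 6 in shNup153 #4, against 6 and 7 in shNup153 #2, and in NeuP they were 2 and 4. In shCtrl, Dlk1 counted through an overlap of 29 bp, and this depends on the start used here. The Ring1B lists came from libraries of 33.2 M tags in NeuP, 30.8 and 9.95 M in shNup153 #2 and #4 and 4.99 M in shCtrl, and held 14556, 15604, 12117 and 11916 peaks in the same order. The part of depth in these counts was not tested. Among 62 other imprinted genes the counts were 16, 32, 19 and 16 for the Ring1B lists in NeuP, shNup153 #2, #4 and shCtrl, and 22 for Cbx7.

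By locus, Mest had a peak near its start in 6 of 9 lists and Dlk1 and Peg3 in 4 each, and Rian and Mirg had none. Mest and Peg3, the 2 members with a Ring1B peak in NeuP, also had higher RNA there than in shCtrl. At Peg3 the NeuP peaks were 1586 bp over the start and 633 bp inside the gene, and the shNup153 #2 list had peaks of 1800 and 501 bp. At Mest the shNup153 #2 peak was 4557 bp wide and the Cbx7 peak 4012 bp. At Dlk1 the Cbx7 peak (chr12, 110690380 to 110694007, 3628 bp) and the shNup153 #2 Ring1B peak (2205 bp) cover the start, and at Grb10 the shNup153 #2 peak of 3783 bp does so. For Igf2 the widest peaks lie upstream of the start used here. They are Ring1B in shNup153 #2 over 5176 bp and Cbx7 over 5207 bp, beginning 2.33 and 2.36 kb before it. The NeuP Ring1B list had 1 peak of 1449 bp in the same stretch. Dlk1, Igf2, Grb10, Meg3 and Mest have annotated starts other than the one used here, at which peaks were not counted. A peak given as upstream or inside the gene may therefore lie at another start, and the counts may miss it.

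**Figure D5:**
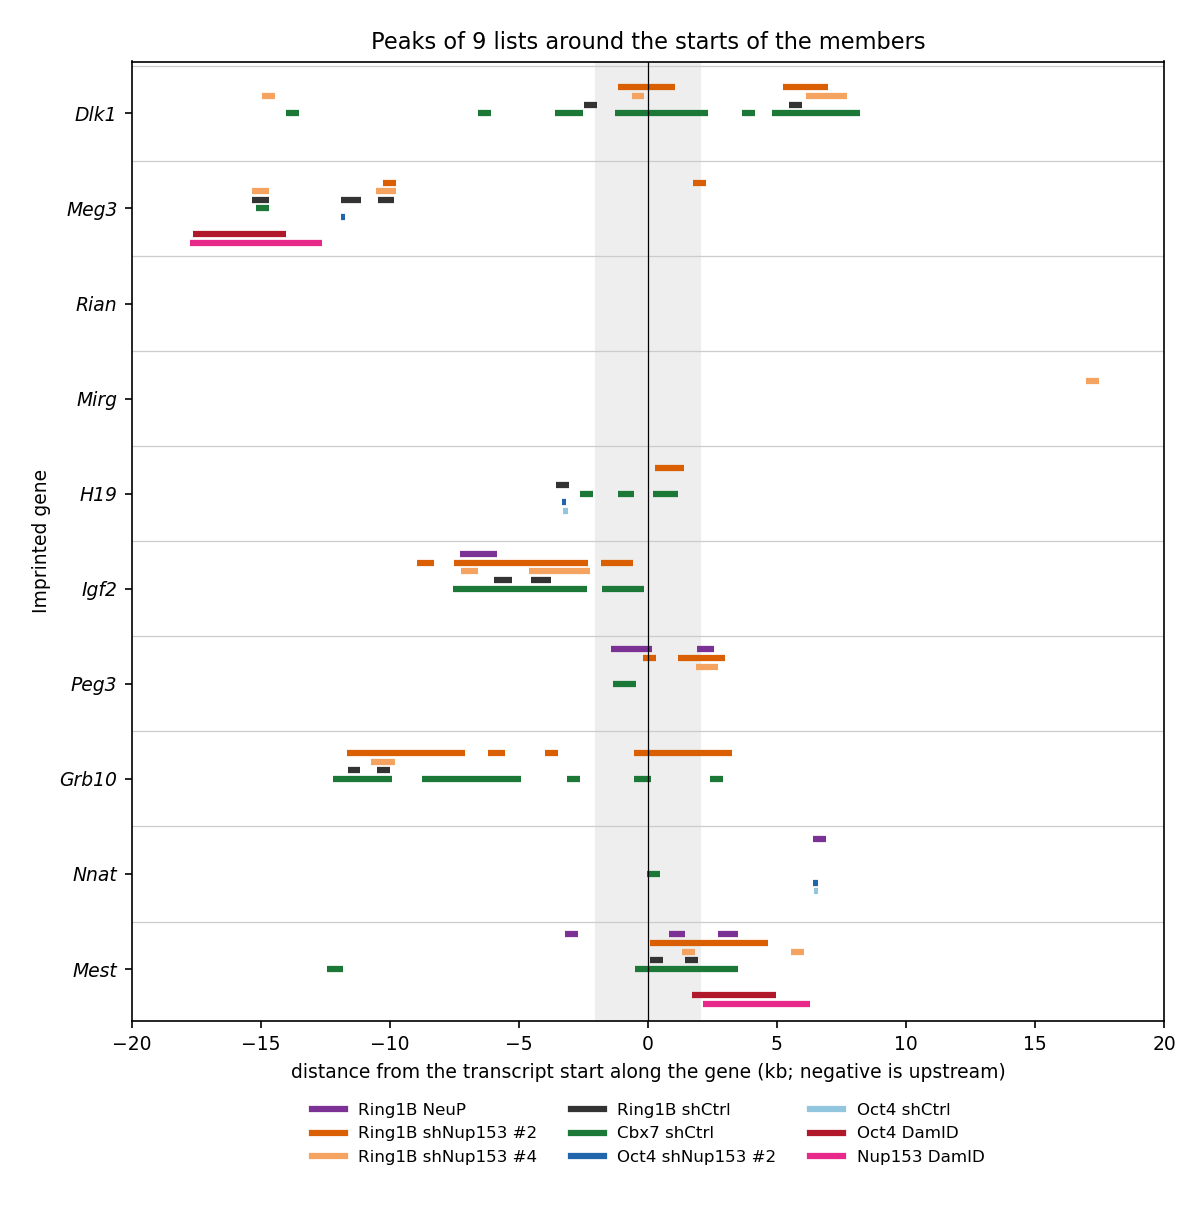
Peaks of the 9 lists by distance in kb from the transcript start of each member, drawn along the direction of transcription, with the 2 kb window shaded and lists in a fixed vertical order. Dlk1, Igf2, Grb10 and Mest carry wide Ring1B peaks in shNup153 #2 and wide Cbx7 peaks in shCtrl, while their shCtrl Ring1B peaks reach at most 808 bp. Rian has no peak within 20 kb, and NeuP Ring1B peaks appear only at Igf2, Peg3, Nnat and Mest.

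Oct4 had 0 members with a peak within 2 kb in either ChIP list (0.712% of all transcripts in shNup153 #2 and 0.733% in shCtrl). The Nup153 DamID list had 0 as well (5.91%), while Oct4 DamID had 1, Mest (2.8%). A Nup153 DamID peak lay 2.14 kb into Mest, just past the window. Mest has annotated starts further along the gene, at which peaks were not counted. Beyond 2 kb, in stretches chosen after the peaks were seen, the region 9.76 to 17.7 kb upstream of Meg3 held a peak of Ring1B in all 3 ESC lists and of Cbx7, of Oct4 in shNup153 #2 and of both DamID lists, and none of Ring1B in NeuP. Over the whole Dlk1-Dio3 domain with 20 kb on either side (867.6 kb), Ring1B had 0 peaks in NeuP, 11 in shNup153 #2, 18 in shNup153 #4 and 15 in shCtrl, out of 523, 677, 736 and 756 on chromosome 12. The NeuP library was the deepest of these, and the part of depth in these counts was not tested. At H19, Oct4 peaks lay 3.16 and 3.11 kb upstream in shNup153 #2 and shCtrl, and a Ring1B peak of shCtrl lay 3.05 kb upstream. At Nnat, Oct4 peaks 6.40 and 6.42 kb past the start in shNup153 #2 and shCtrl overlapped the stretch of the 1 Ring1B peak of NeuP, 6.41 kb past the start, near the start of Blcap, which lies 6.28 kb from that of Nnat. Each ChIP list is 1 library, so no difference between lists was tested against a replicate spread.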

How the data were processed

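RNA values were deposited by the authors as FPKM in 1 table of 24016 transcripts, and peaks as 9 lists of positions in mm9. Per the submitters' processing notes the tools included STAR 2.2.0c, Bowtie2 2.1.0 and HOMER 4.6, and per the labels the RNA libraries were stranded and polyadenylated. ChIP lists came from HOMER's peak caller against an IgG library, per the file headers. FPKM times transcript length gave whole reads within 0.1 read for 100% of low values tested, which gave the depths. The members and all gene lists were chosen with earlier results of these data known. The 13750 genes that reached 1 FPKM in some library entered limma 3.58.1 (R 4.3.3) on log2(FPKM + 1), with trend. It was 1 fit of 3 groups with 2 residual degrees of freedom plus 1.74 from moderation. The lone shCtrl library took its spread from the others, so each gene has the same SE in both comparisons. P-values are two-sided, adjusted by Benjamini-Hochberg over all genes tested, and measure the spread between these samples, which may be technical, since no label names separate cultures. Named genes were the 10 members, the 6 largest called changes in each direction among other imprinted genes (up to 5 by size where none was called), neighbours in the members' domains, up to 4 genes a direction in the pathway lists, and the 3 nearest profiles of Meg3, Igf2, Peg3 and Mest; 2-fold rules use log2(FPKM + 1). The fit was tested on simulated data. Peaks counted when at least 1 bp overlapped 2 kb on either side of a start, and each gene had the single start given in the deposited table. Promoter and microRNA sequences are RefSeq's, on GRCm38.p6. Python 3.11.15 was used. Voom on recovered reads, other pseudocounts, filters, quantile scaling, peak windows and leaving out libraries were tried.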

Additional observations from a re-analysis of the deposited data

How the results depend on the processing

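Of 208 alternative values of the members' log2 changes, 167 moved by less than the spread between replicates, 41 moved further and 2 changed sign, both for Igf2 in NeuP (0.16 after quantile normalization, 0.12 without NeuP replicate 1). Many of the 167 could not have moved further. Other filters leave a log2 change as it was, and so does leaving out a library of the group not compared. Leaving out 1 of 2 replicates moves a change by only part of their difference. The 167 are therefore no measure of stability. Leaving out a library in turn gave 318 to 4692 genes called higher and 1504 to 6629 called lower in NeuP over all genes (2516 and 3420 with all libraries), and 0 to 18 higher and 6 to 23 lower among the other imprinted genes (10 and 12). With no filter on low values the other imprinted genes had 6 higher, and the knockdown had 55 higher and 175 lower calls over all genes and 2 lower among other imprinted genes. Members at least 2-fold higher in both hairpins numbered 1, and 2 with a pseudocount of 0.1 and 0 with a pseudocount of 5. Members with a peak near the start changed with the window. For 1 kb the count was 1 for Ring1B in shNup153 #4, 1 for Ring1B in shCtrl and 0 for Oct4 DamID. For 5 kb it was 4 for Ring1B in shCtrl and 1 each for Oct4 in shNup153 #2, Oct4 in shCtrl and Nup153 DamID. For 10 kb it was 4 for Ring1B in NeuP, 6 in shNup153 #4 and 5 in shCtrl, 2 for Oct4 in each of shNup153 #2 and shCtrl, and 1 for Nup153 DamID. With the peak centre required within 2 kb it was 1 for Ring1B in shCtrl and 0 for Oct4 DamID. The cause of these moves was not tested. No paired analysis was possible because the groups compared share fewer than 2 replicate numbers: both are set against shCtrl, which has 1 library. Values under 1 FPKM rest on few reads, and the shCtrl library cannot be left out.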

Other observations

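The Prader-Willi domain on chromosome 7 held genes of unlike pattern. Ndn, Peg12 and Mkrn3 rose in NeuP, with log2 changes of 3.08, 3.82 and 1.69, and Mkrn3, a zinc finger and ubiquitin ligase gene, was at 6.78 and 5.23 FPKM in NeuP and 1.16 FPKM in shCtrl. Snrpn and Snurf, which share exons so that their reads cannot be told apart, had log2 changes of -0.51 each, and neither passed (adjusted p = 0.175 and 0.183, limma). Magel2 stayed under 0.3 FPKM in all libraries. In the knockdown 0 of these genes were called. Gnas, which codes for the stimulatory G protein subunit, and Sgce, a sarcoglycan gene next to Peg10, also rose in NeuP, by 1.43 and 1.39, and Peg10 itself did not pass, with 58.6 and 181 FPKM in NeuP against 110 FPKM in shCtrl (adjusted p = 0.934).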
